A study of Mus musculus with 8 samples.

Results

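Pre-B cells were compared with pro-B cells by the mRNA counts of 2 rRNA-depleted RNA libraries, 1 per stage. Of the 22298 genes in the mRNA table, the 7860 with 20 or more counts over both libraries were used, and each count was scaled by its own library's mRNA total to CPM, the usual unit of counts relative to library size. Both stages came from bone marrow of wild type C57BL/6 mice, which the study's methods give as female and 8 to 10 weeks old. Live B220+IgM- cells were sorted as pro-B when CD43+ and as pre-B when CD43-, and the cells of 3 mice were pooled for each. There was no replicate library, so no difference below has a replicate check and no test was made. A gene is called higher or lower in pre-B where the whole exact 95% interval of its CPM ratio lay past 2-fold. Such intervals cover counting error only.

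Pro-B cells rearrange the immunoglobulin heavy chain locus with the RAG1 and RAG2 recombinase, and terminal transferase (Dntt) adds untemplated bases at the joints. A rearranged heavy chain pairs with the surrogate light chain, made of VPREB and IGLL1 (lambda 5), to form the pre-B-cell receptor. Signals from this receptor and from the interleukin-7 receptor drive a burst of division, after which the surrogate light chain and Dntt are shut off, RAG is expressed again and the light chain loci rearrange.

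The genes of the surrogate light chain, Igll1 and Vpreb1, lie near each other on chromosome 16, and both were listed at 0 in the pre-B library. Their promoters are shown because both genes encode parts of the same receptor and had the same pattern of counts. The windows run from 250 bases before to 50 bases after the RefSeq start (GRCm38.p6), at chr16:16863936-16864235 for Igll1 and chr16:16869206-16869505 for Vpreb1, both on the minus strand. Capitals mark the letters CAGGTG on either strand (an E-box of the kind that E proteins bind) and CCCNNGGG on either strand (of the kind that EBF1 binds).
Igll1: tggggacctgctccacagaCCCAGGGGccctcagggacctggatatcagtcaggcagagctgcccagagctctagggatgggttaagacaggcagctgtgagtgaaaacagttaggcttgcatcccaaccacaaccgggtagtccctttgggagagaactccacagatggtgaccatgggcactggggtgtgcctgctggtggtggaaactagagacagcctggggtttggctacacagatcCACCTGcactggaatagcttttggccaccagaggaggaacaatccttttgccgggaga
Vpreb1: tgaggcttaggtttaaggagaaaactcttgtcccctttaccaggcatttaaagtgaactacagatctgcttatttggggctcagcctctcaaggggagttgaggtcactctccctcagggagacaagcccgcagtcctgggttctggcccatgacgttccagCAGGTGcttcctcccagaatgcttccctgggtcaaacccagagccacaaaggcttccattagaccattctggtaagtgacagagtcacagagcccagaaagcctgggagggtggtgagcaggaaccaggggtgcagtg
The E-box letters began at position -8 from the start in Igll1, on the opposite strand, and at -88 in Vpreb1, on the gene's own strand. The CCCNNGGG letters occurred once in Igll1, at -231, and not in the Vpreb1 window. The E-box letters occurred in 20.2% of the 32817 RefSeq promoter windows of this length and CCCNNGGG in 13.7%, and neither occurred in the windows of Dntt and Rag2. These matches describe the letters only.

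The libraries differed in how much of them was mRNA. The mRNA counts summed to 867920 in pro-B and to 240231 in pre-B, 3.61-fold fewer, while the mRNA and lncRNA counts together summed to 3663439 and 3709988. Unannotated transcripts took 73.1% of that sum in pro-B and 91.2% in pre-B. A gene with equal counts in both libraries therefore has a log2 CPM ratio of 1.85, and "higher" here means a larger share of a smaller mRNA pool. In single counts, 3 counts corresponded to 3.46 CPM in pro-B and 12.5 CPM in pre-B. Whole values up to 20 counts were even in 76.0% of cases in pro-B and 78.0% in pre-B, so many low counts may count both mates of a pair, and the intervals would then be too narrow. Calls were therefore also made with counts halved, and a call said below to hold in read pairs passed both.

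By the interval, 487 genes (6.2% of those used) were higher and 808 (10.3%) lower in pre-B, and in read pairs 322 (4.1%) were higher and 319 (4.06%) lower. The median log2 ratio of all genes was -0.49, with 90% of genes between -2.61 and 1.95. Of the 487 higher genes, 290 had an interval that holds equal counts in both libraries and 178 lay above it. Scaled by edgeR's TMM factors, 711 genes were higher and 460 lower, and with the mRNA and lncRNA counts as the total 35 were higher and 5007 lower. The split of calls by direction thus rests on the scaling, and gene groups are given beside the median of all genes, which any change of the totals moves equally. Higher genes made up 37.6% of the calls by mRNA totals and 60.7% by TMM. In pre-B, 525 of the genes used were listed at 0, and 316 of them were among the 808 lower calls. These included genes that every cell uses. Hsp90ab1, a chaperone, had 180 counts in pro-B, 0 in pre-B and, in the other libraries of the series, 0 in immature and 311 in mature B cells. The deubiquitinase Usp24 had 434, 0, 0 and 294 in the same order. A gene at 0 is therefore called listed at 0, and the fold given for it is against 3 counts.

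**Figure D1:**
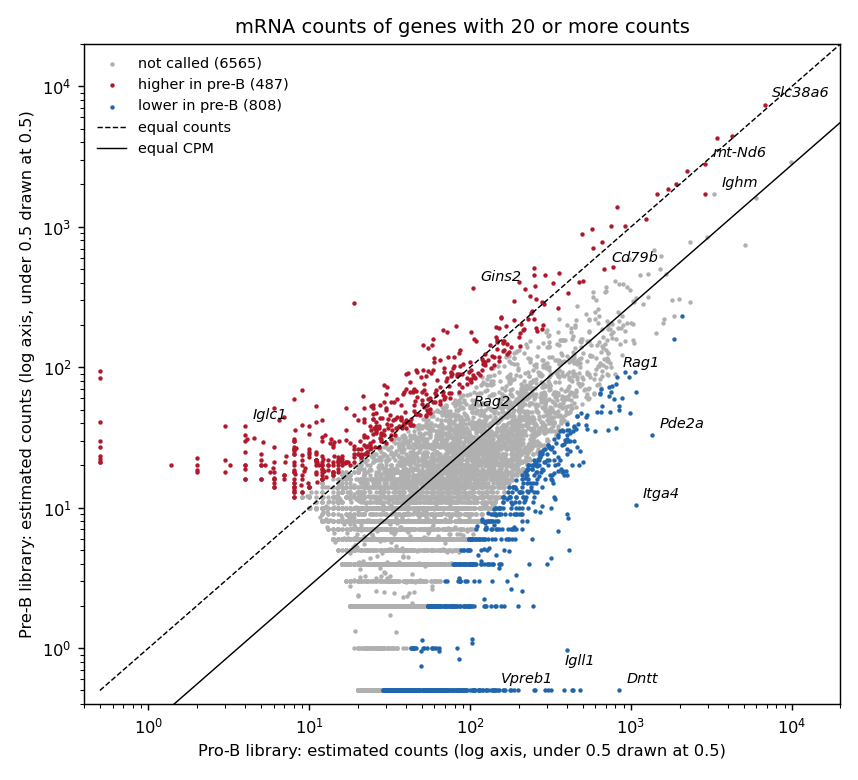
Estimated mRNA counts of the 7860 genes in the pro-B library (x axis) and the pre-B library (y axis), both on log axes with counts under 0.5 drawn at 0.5. Red points are the 487 genes called higher in pre-B, blue points the 808 called lower, and grey points the 6565 not called, with a solid line at equal CPM and a dashed line at equal counts. For 290 of the 487 red points the interval holds the dashed line, and the row of blue points at the bottom holds genes listed at 0 in pre-B.

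Among the V(D)J recombination genes, Dntt headed all lower genes when these were ranked by the interval end nearer to equality. It had 845 counts (974 CPM) in pro-B and was listed at 0 in pre-B, 78.0-fold lower against 3 counts, with an interval that reached down to 63.3-fold. The recombinase partners lay on opposite sides of equality. Rag1 had 797 counts (918 CPM) in pro-B and 89.4 counts (372 CPM) in pre-B, 2.47-fold lower (interval 1.99 to 3.12), which was not called. Rag2 had 95 counts (109 CPM) in pro-B and 76 counts (316 CPM) in pre-B, 2.89-fold higher (2.11 to 3.95). Its call did not hold in read pairs, and with the mRNA and lncRNA counts as the total its log2 ratio turned from 1.53 to -0.34. Of the 12 members used, out of 17 listed, Rag2 and Trp53bp1, a repair factor at double-strand breaks, were called higher, and Dntt and Atm, the kinase that senses such breaks, lower. Only Dntt held in read pairs. Of all genes, 6.2% were called higher and 10.3% lower. The members' median log2 ratio was -0.38, against -0.49 for all genes. The DNA-bending cofactors of RAG cleavage, Hmgb1 and Hmgb2, had log2 ratios of -0.38 and -0.34, and the end-joining polymerase Polm was 2.46-fold higher (1.67 to 3.58), none of them called.

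The pre-B-cell receptor genes comprised those of the surrogate light chain and those of the mature receptor. Igll1 had 427 counts (492 CPM) in pro-B and was listed at 0 in pre-B, 39.4-fold lower against 3 counts, with an interval down to 31.9-fold. Vpreb1 had 318 counts (367 CPM) and was listed at 0, 29.4-fold lower against 3 counts, with an interval down to 23.7-fold. Both calls held in read pairs, and neither gene had more than 2 counts in the immature or mature B library. Vpreb2, a near copy of Vpreb1, was listed at 0 in both libraries. Vpreb3, a related gene with a role in light chain assembly, did not follow them, with 158 and 70.8 counts and a log2 ratio of 0.69 (0.27 to 1.11).

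The light chain constant genes were higher in pre-B from few counts. Igkc, the kappa constant region, had 26.0 counts (30.0 CPM) in pro-B and 38.1 counts (159 CPM) in pre-B, 5.29-fold higher (3.12 to 9.06). The lambda constant genes stood further apart, with 4 and 38 counts for Iglc1 (34.3-fold, 12.4 to 132), 17 and 51 for Iglc2 (log2 ratio 3.44, 2.62 to 4.32) and 15.3 and 29.7 for Iglc3 (7.01-fold, 3.77 to 14.5). Iglc2 and Iglc3 are close copies whose reads may be split between them. All of these calls held in read pairs, and the raw counts themselves were larger in pre-B, although the interval of Igkc holds equal counts. With the mRNA and lncRNA counts as the total, the log2 ratios of Igkc and Iglc1 were 0.53 and 3.23. The signal chain Cd79b had 677 counts (780 CPM) and 498 counts (2073 CPM), 2.66-fold higher (2.36 to 2.99), but with the mRNA and lncRNA counts as the total its log2 ratio was -0.46. Its partner Cd79a had 249 and 59.8 counts, with a log2 ratio of -0.20 (-0.63 to 0.21). Ighm, the mu heavy chain and the receptor gene with the most counts, had 3276 counts (3775 CPM) and 1717 counts (7147 CPM), 1.89-fold higher (1.79 to 2.01), and was not called. In all, 5 of 11 members used were higher and 2 lower, where 6.2% and 10.3% of all genes were. The median log2 ratio of the 11 members was 0.92, against -0.49 for all genes.

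Few variable segments had enough counts, 8 of 218 in the table. Iglv1, a lambda variable segment, was listed at 0 in pro-B and had 23.4 counts in pre-B, and Ighv1-19 had 7 and 16 counts (log2 ratio 3.05, 1.68 to 4.57). The call of Iglv1 held in read pairs and that of Ighv1-19 did not. Igkv1-135, the segment with the most counts, had 64 and 28 and was not called.

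**Figure D2:**
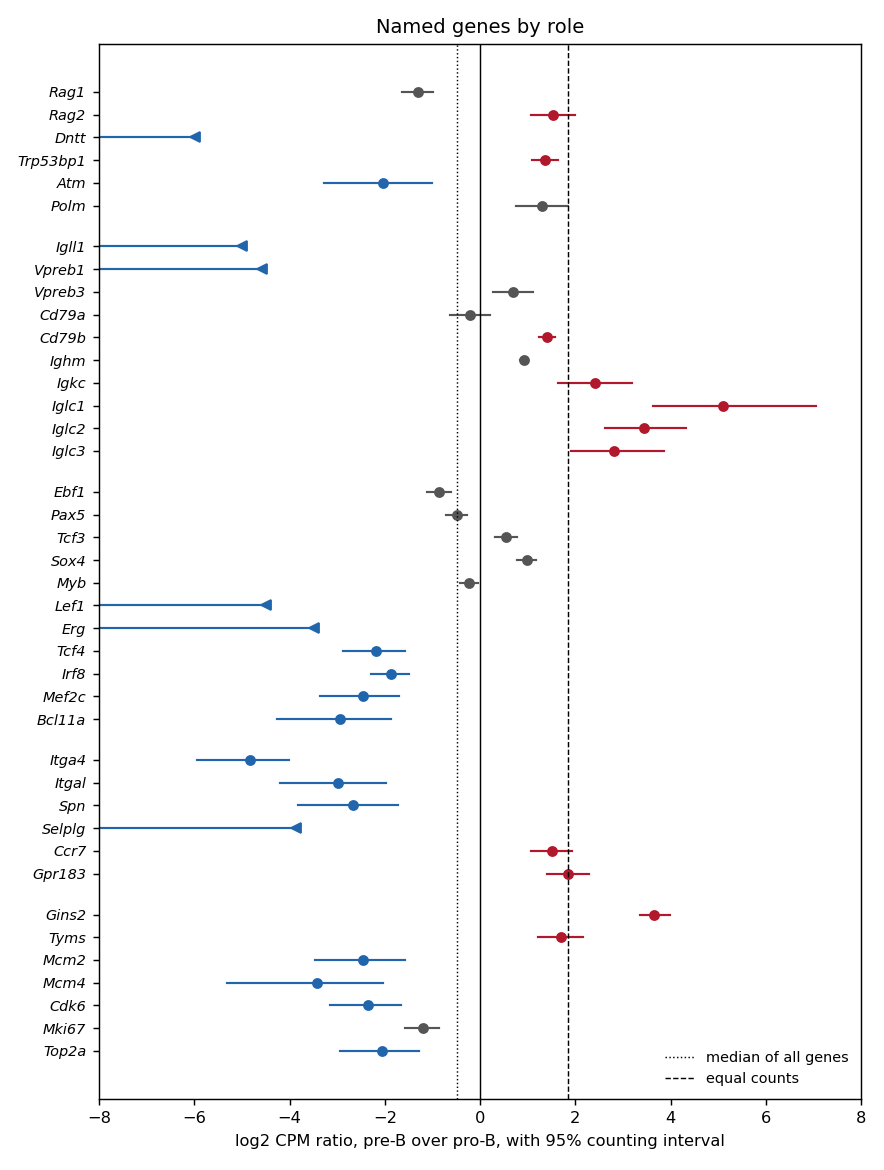
Log2 CPM ratio of named genes, pre-B over pro-B, with exact 95% counting intervals as bars, ordered by role from V(D)J recombination at the top to the cell cycle at the bottom. Red marks genes called higher, blue genes called lower and grey genes not called, a triangle stands at the interval's upper end for genes listed at 0 in pre-B, and the dotted and dashed lines mark the median of all genes (-0.49) and equal counts (1.85). The light chain constant genes and Gins2 lie to the right, and Dntt, Igll1, Vpreb1, Lef1 and Itga4 to the left.

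Of 24 proximal signaling genes of the receptor, 18 were not called, as were 6565 of all 7860 genes. Syk, the kinase that binds the phosphorylated receptor, had 657 and 186 counts, 757 and 773 CPM, with a log2 ratio of 0.03 (-0.21 to 0.27). Among the members used, 5 were lower, Fyn, Inpp5d, Ptprc and Pik3r1 among them, and 1 was higher, Rasgrp1, where 10.3% and 6.2% of all genes were. The calls of Fyn and Ptprc held in read pairs. Ptprc encodes CD45, whose B220 form was the sort marker of both stages, and it had 252 counts (290 CPM) in pro-B and 9.4 counts (39.1 CPM) in pre-B, 7.42-fold lower (4.02 to 17.1). Blnk, the adaptor that couples SYK to PLCG2, had 397 and 41 counts with a log2 ratio of -1.42 (-1.92 to -0.96), just short of a call. The median log2 ratio was -0.70.

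Among the transcription factors of the B lineage, Ebf1, Pax5 and Tcf3, the core of the pro-B program, had log2 ratios of -0.86 (-1.10 to -0.61), -0.49 (-0.71 to -0.27) and 0.54 (0.31 to 0.77), and none was called. Myb had 1189 and 280 counts and a log2 ratio of -0.23, and Sox4 had 582 and 318 counts and 0.98 (0.78 to 1.18). Of the 30 members used, 7 were lower and 0 higher, with a median of -0.81, where 10.3% of all genes were lower. Lef1, a factor of Wnt signaling that is active in pro-B cells, had 303 counts (350 CPM) in pro-B and was listed at 0, 28.0-fold lower against 3 counts, with an interval down to 22.6-fold. Erg, an ETS factor of progenitors, had 152 counts (175 CPM) and was listed at 0. Bcl11a (193 and 7 counts), Mef2c (279 and 14), Tcf4 (363.5 and 22) and Irf8 (783 and 59) were between 3.67-fold and 7.63-fold lower, and all these calls held in read pairs. The call of Lmo2, a cofactor of progenitors with 54 counts and 1, did not.

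Tcf4 and Irf8, together with Bcl11a, are also highly expressed in plasmacytoid dendritic cells, which carry B220 and lack IgM. The 7 markers listed for those cells summed to 835 CPM in pro-B and 158 CPM in pre-B. Siglech, a receptor that defines them, had 105 counts in pro-B and was listed at 0 in pre-B, Runx2 had 299 and 4 counts, and 4 of the 7 were listed at 0 in pre-B. The 14 markers of T and NK cells summed to 363 and 37.8 CPM. Gzma had 106 and 0 counts, Ncr1 39 and 0 and Nkg7 38 and 0, and Cd3e was listed at 0 in both. Cd247 (1 and 5.09 counts) and Cd3d (0 and 2), both under the count minimum, went the other way. Of the 14 markers, 11 were at 0 in pre-B and 2 in pro-B. Of all 22298 genes in the table, 10403 were above 0 in pre-B and 12830 in pro-B. Only 4 of the T and NK cell markers at 0 in pre-B, and 2 of the plasmacytoid dendritic cell markers, had enough counts to be used. The part of these cells in the lower calls was not tested, and in a bulk library fewer cells of a type cannot be told apart from less RNA per cell. The sums of most other markers differed by less than 2-fold. Those of granulocytes and monocytes summed to 1606 and 1865 CPM (Lyz2 with 279 and 88 counts, and Cd14 listed at 0 in both), of erythroid cells to 686 and 512, of plasma cells to 479 and 560, of stromal cells to 143 and 258, of mature B cells to 472 and 274, and of basophils and mast cells to 16.1 and 16.7. The 5 megakaryocyte markers summed to 11.5 CPM in pro-B and were all listed at 0 in pre-B. No gene used from these 7 lists was called in either direction, and the basophil and megakaryocyte lists had 0 genes with enough counts.

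**Figure D3:**
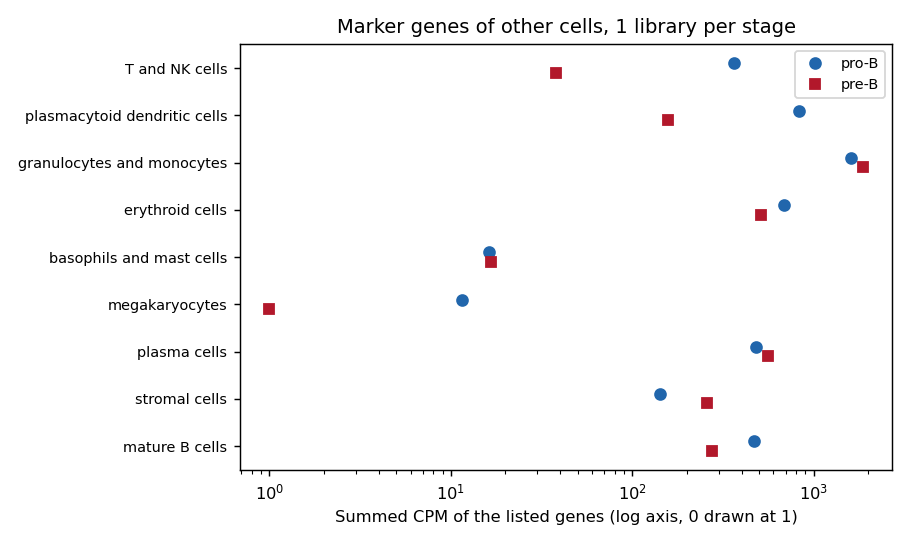
Summed CPM of the marker genes of other cell types in the pro-B library (circles) and the pre-B library (squares), on a log axis with 0 drawn at 1. The T and NK cell sum (363 against 37.8) and the plasmacytoid dendritic cell sum (835 against 158) stand apart between the libraries, while the granulocyte and monocyte sum (1606 against 1865) does not.

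The sort marker and several adhesion genes were lower in pre-B. Spn, which encodes CD43, the marker that separated the gates, had 208 counts (240 CPM) in pro-B and 9 counts (37.5 CPM) in pre-B, 6.40-fold lower (3.31 to 14.2). As the gate used CD43, this checks the labels and is no finding. Itga4, the alpha 4 integrin that holds progenitors to stroma, had 1068 counts (1231 CPM) and 10.4 counts (43.5 CPM), 28.3-fold lower (16.0 to 61.8). Its partner chain Itgb1 had 183 and 22 counts with a log2 ratio of -1.20 (-1.91 to -0.56) and was not called. Itgal, the LFA-1 alpha chain, was 7.85-fold lower (227 and 8 counts), and Selplg, the ligand of selectins, and S1pr4, a lipid receptor, were listed at 0 after 197 and 74.4 counts. The chemokine receptor Ccr7 and the oxysterol receptor Gpr183 were called higher, with 107 and 84 counts and with 89 counts in each library. With the mRNA and lncRNA counts as the total, their log2 ratios were -0.37 and -0.018. Cxcr4, which retains cells in the marrow, had 949 and 373 counts and a log2 ratio of 0.51 (0.33 to 0.68). Of 16 members used, 5 were lower, Spn included, and 2 higher, where 10.3% and 6.2% of all genes were. All 5 lower calls held in read pairs, as did the higher call of Gpr183 but not that of Ccr7. The members' median was -1.42, or -1.28 without the genes listed at 0.

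Among cytokine receptors and STAT signaling genes, Il7r, the receptor that sustains pro-B cells, had 189 and 32 counts and a log2 ratio of -0.71 (-1.30 to -0.16), and Il2ra, a marker of pre-B cells, had 59 and 20 counts and 0.29 (-0.52 to 1.05). Kit, a marker of early pro-B cells, had 27 and 2 counts and -1.90 (-5.02 to 0.09). The kinase Jak2 had 128 and 4 counts (8.86-fold lower, 3.38 to 33.0) and its call held in read pairs, unlike those of Tyk2 and Flt3 and the higher call of Socs1, a feedback inhibitor with 15 and 21 counts. Of 18 members used, 3 were lower and 1 higher, where 10.3% and 6.2% of all genes were. The members' median was -0.92, against -0.49 for all genes.

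Among surface genes of maturation, Ly6d, which marks committed lymphoid progenitors, had 186 counts (214 CPM) and 217 counts (903 CPM), 4.21-fold higher (3.45 to 5.15). Cd38, an ectoenzyme, had 77 and 89 counts, 4.18-fold higher (3.04 to 5.74). Both intervals hold equal counts, and with the mRNA and lncRNA counts as the total the log2 ratios of Ly6d and Cd38 were 0.20 and 0.19. Enpep, the BP-1 antigen of late pro-B and large pre-B cells, had 82 counts and was listed at 0. All of these calls held in read pairs. Cd24a, with 1137 and 452 counts, had a log2 ratio of 0.52 (0.36 to 0.68) and was not called. Of 13 members used, 2 were higher and 1 lower, where 6.2% and 10.3% of all genes were.

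The replication, mitosis and G1 lists had medians below that of all genes, but Gins2 was among the higher genes. Gins2, a subunit of the replicative helicase, had 104 counts (120 CPM) in pro-B and 365 counts (1518 CPM) in pre-B, 12.6-fold higher (10.2 to 15.9). It was listed at 0 in immature B cells and had 12.8 counts in mature B cells. None of the other helicase subunits used was called higher. Mcm2 had 217 and 11 counts (5.46-fold lower, 2.99 to 11.1), Mcm4 had 154 and 4 (10.7-fold lower, 4.08 to 39.6), and Mcm3 had 100.1 counts and was listed at 0. Mcm6 had 406 and 53 counts (log2 ratio -1.08) and Gins1, Gins3 and Gins4 had too few counts to be used. Uhrf1, which couples replication to DNA methylation, had 134 counts and was listed at 0, yet 4 back-spliced reads of the gene were counted in the same pre-B library. Tyms, the thymidylate synthase, was 3.22-fold higher (85.1 and 76.0 counts), a call that held in read pairs, with a log2 ratio of -0.18 on the mRNA and lncRNA total. Over the replication list, 2 of 34 members were higher and 7 lower, with a median of -0.80, where 6.2% and 10.3% of all genes were.

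Mitosis genes had a median log2 ratio of -1.32 over 25 members. Mki67, the proliferation antigen, had 634 and 76 counts (-1.21, -1.57 to -0.86) and was not called. Top2a (210 and 14 counts), Smc4 and Cenpf were called lower, and none of these calls held in read pairs. Of the 25 mitosis genes, 3 were lower and 0 higher, where 10.3% and 6.2% of all genes were. Among G1 regulators, with a median of -1.22 over 15 members, Cdk6 had 314 and 17 counts and was 5.11-fold lower (3.14 to 8.89), which held in read pairs. Rbl1 (78 and 4 counts) was called lower and Ccne2 (9.01 and 13.0 counts) higher, and neither call held in read pairs. Of the 15 G1 regulators, 2 were thus lower and 1 higher, where 10.3% and 6.2% of all genes were. Ccnd3, the D-type cyclin that pre-B cells depend on, had 197 and 40 counts and -0.45 (-0.98 to 0.05), and E2f2 had 242 and 79 counts and 0.24 (-0.15 to 0.61). The other D-type cyclins, Ccnd2 with 106 and 10 counts and Ccnd1 with 95 and 6.85, were not called. Their log2 ratios were -1.55 (-2.65 to -0.62) and -1.94 (-3.26 to -0.81).

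The histone genes stood above the median of all genes, with a median log2 ratio of 0.71 over 53 members. Of these, 9 were higher and 3 lower, where 6.2% and 10.3% of all genes were, and in read pairs 5 and 1. All 3 lower genes (H2ac12, H2ac19 and Hist1h2ap) were listed at 0 in pre-B. H3c6 had 77.9 and 98.6 counts (4.57-fold higher, 3.37 to 6.25) and H1f2, a linker histone, 202 and 164 (2.93-fold higher, 2.37 to 3.62). The extreme pair Hist1h2ao (0 and 94.1 counts) and Hist1h2ap (76.5 and 0) are near-identical H2A genes between which the counting could split reads, so both values are uncertain, although they stand in the counts of higher and lower genes. Ribosomal protein genes also stood above the median of all genes, with a median of 0.48 over 76 members. Of these, 4 were higher (5.3%) and 3 lower (3.9%), against 6.2% and 10.3% of all genes. In read pairs 1 was higher and 2 lower. The mitochondrially encoded genes had a median of 0.18 over 12 members. Among them mt-Nd6, the one protein gene on the light strand, had 2874 and 2798 counts and a log2 ratio of 1.81 (1.74 to 1.89), whereas mt-Co1 had 9848 and 2905 counts and 0.09 (0.03 to 0.15). With the mRNA and lncRNA counts as the total, mt-Nd6 was at -0.057 and the medians of these 3 lists were below 0.

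**Figure D4:**
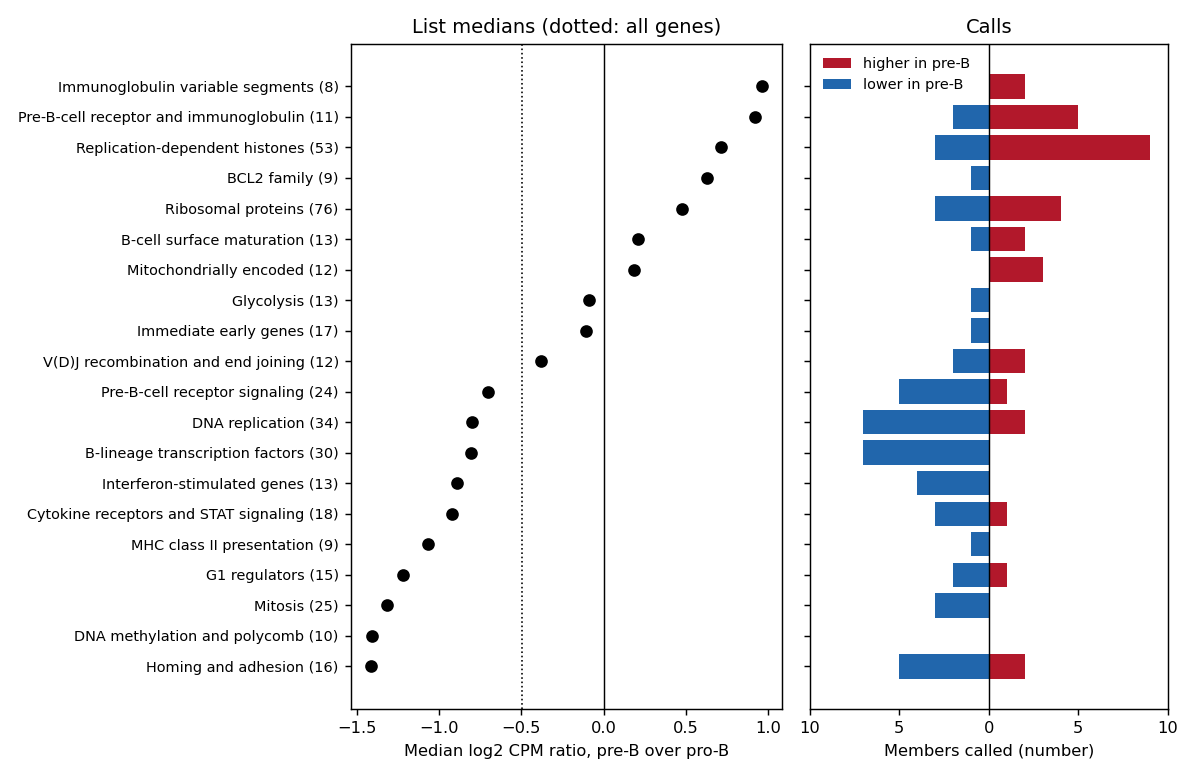
Left, median log2 CPM ratio (pre-B over pro-B) of each gene list, with the number of members used in brackets and a dotted line at the median of all genes (-0.49). Right, number of members called higher (red, to the right) and lower (blue, to the left). Immunoglobulin and histone lists lie above the median of all genes, and homing, DNA methylation and mitosis lists below it.

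In the remaining lists, BCL2 family genes had a median log2 ratio of 0.63 over 9 members, against -0.49 for all genes. Bcl2 itself, the survival gene, had 30 counts in pro-B and was listed at 0 in pre-B. Bmf, a pro-death member, had 92 and 57 counts and 1.16 (0.66 to 1.65), and Bcl2l1, which encodes BCL-XL, had 88 and 40 and 0.72 (0.14 to 1.27), neither called. MHC class II genes had a median of -1.07 over 9 members, with Cd74, the invariant chain, at 448 and 90 counts (-0.46, -0.81 to -0.13) and Ctss, the protease that trims it, called lower. Interferon-stimulated genes had a median of -0.89 over 13 members, and 4 were lower, where 10.3% of all genes were. Ifi44, Ifit2 and Oasl2 among them were listed at 0 in pre-B, and Bst2 (259 and 18 counts) held in read pairs. Without genes listed at 0 the list's median was -0.16 and that of all genes -0.39, so the list then lay above it. BST2 is also a surface marker of plasmacytoid dendritic cells. Immediate early genes had a median of -0.11 over 17 members, and Nr4a1, induced by receptor signals, had 115 counts and was listed at 0. Glycolysis genes had a median of -0.09 over 13 members, with Gpi1 lower. DNA methylation and polycomb genes had a median of -1.41 over 10 members, with 0 called and Ezh2 at 323 and 40 counts. The lower calls of Bcl2, Ctss and Gpi1 did not hold in read pairs. Each was the only call in its list, where 10.3% of all genes were lower. Over all 20 lists, 418 of 708 members in the table were used, of which 34 were higher and 51 lower, and 19 and 29 in read pairs. Of all 7860 genes, 487 (6.2%) were higher and 808 (10.3%) lower, and 322 (4.1%) and 319 (4.06%) in read pairs.

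Pde2a, which encodes a cyclic nucleotide phosphodiesterase and was named with the comparison, had 1356 counts (1562 CPM) in pro-B and 33 counts (137 CPM) in pre-B, 11.4-fold lower (8.06 to 16.6). The genes farthest from equality on the lower side, beside those above, held Mpeg1 (481 counts), the splicing helicase gene Snrnp200 (381), the phosphatase gene Ppp1ca (292), the cohesin regulator Pds5a (253), Capza1 (250) and Hivep3 (187), all at or rounding to 0 in pre-B. Utrn, which encodes utrophin, had 398 and 0.97 counts (114-fold lower, 19.7 to 4362). Those on the higher side held Gm9747 (19 and 285 counts, 54.2-fold, 34.1 to 91.3), Dtx1, a Notch target gene (9 and 69, 27.7-fold, 13.8 to 63.1), Podxl (8 and 59), Gpr161 (6 and 51), Nipal4 (3 and 38) and Iglc1. Gm26992, Fam177a, Gja10, Wnt16, Fanci, Kcnmb3 and Klhl8 were listed at 0 in pro-B and had between 21 and 84.2 counts in pre-B. Fam177a had 0, 40.6, 0 and 48.5 counts in pro-B, pre-B, immature and mature B cells. Fam177a2, looked at after these values were seen, had 94.2, 0, 37.2 and 0 in the same order. Whether the counting moved reads between these similarly named genes was not tested, so the value of Fam177a is uncertain. These extremes were chosen by the values, which are given as a description.

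The genes with the most counts in pre-B were of another kind. Slc38a6, an amino acid transporter gene, had 6753 counts in pro-B and 7407 in pre-B, or 0.778% and 3.08% of the mRNA counts, and Tmem72, Noct, D10Wsu102e, Gm21962, Gm21897 and Olfr77 were also among the 10 highest. Among genes with at least 500 counts in pre-B, 29 in all, 11 were selected for counts within 1.25-fold of each other in the libraries, which sets their log2 ratios near 1.85. They took 11.0% of the pre-B counts against 2.83% in pro-B. Olfactory receptor genes, a group looked at after these values were seen, summed to 4987 counts in pro-B and 5433 in pre-B. Of 1194 such genes in the table, 37 had enough counts to be used, and of these 21 were higher and 0 lower, where 6.2% of all genes were higher, with a median log2 ratio of 1.80. Their part in the other higher calls was not tested.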

How the data were processed

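The rRNA-depleted RNA libraries of pro-B and pre-B cells were compared, 1 per stage, each a pool of cells of 3 mice, grouped by the stage in their labels. The authors cleaned reads with fastp, removed rRNA reads with Bowtie2, mapped paired reads with strand to the genome with HISAT2 and quantified transcripts with StringTie. The submitters' processing notes also name Bowtie 0.12.2 and mm9. For mRNA and lncRNA the authors deposited unnormalized estimated counts, some of them fractional. FPKM columns, which the authors scaled by transcript length and mapped fragments, entered 1 alternative. Back-spliced reads per circRNA were deposited as raw counts. The small RNA table was not used. Per-sample columns that matched no sample numbered 0.

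CPM used the mRNA column totals. The share of pre-B in the rounded counts of a gene was given an exact (Clopper-Pearson) 95% interval, which was turned into a CPM ratio, and a count that rounds to 0 was set to 3 for the ratio. Genes needed 20 counts over both libraries and a whole interval past 2-fold for a call. This rule was tested on simulated independent counts, which did not model mates counted separately or reads split between similar genes. Named are the 6 genes Dntt, Igll1, Vpreb1, Rag2, Gins2 and Pde2a, members of the gene lists, the 15 called genes per direction whose interval end nearer to equality lay farthest out, the 10 genes with the most counts per library, and genes named as chosen after their values were seen. The members and lists were chosen with earlier results of these data known. Scaling factors came from DESeq2 1.42.0 (median of ratios) and edgeR 4.0.16 (TMM) under R 4.3.3, and all else was computed in Python 3.11.15 (intervals from scipy 1.17.1, tables read by pandas 2.3.3 on numpy 2.4.6, plots by matplotlib 3.10.9). Promoters are RefSeq sequences (GRCm38.p6) matched by symbol. The alternatives were other scalings, count minimums and call rules, and 3 chosen after seeing the data, namely the mRNA and lncRNA total, read pairs, and leaving out genes listed at 0. Some genes are not reported here. With 1 library per stage, no replicate could be left out.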

Additional observations from a re-analysis of the deposited data

How the results depend on the processing

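The calls were 487 higher and 808 lower, with 34 and 51 among members of the gene lists. They moved by over 1.5 times in at least 1 direction under most alternatives. TMM scaling gave 711 and 460 (59 and 33 in the lists), and DESeq2's median of ratios 733 and 430 (62 and 32). These scalings raised the median log2 ratio of all genes by 0.36 and 0.39, and the share of higher calls from 37.6% to 60.7% and 63.0%. Totals without the 20 genes with the most counts gave 584 and 618, a share of 48.6%. The mRNA and lncRNA total gave 35 and 5007 (4 and 267), moving the median by -1.87, and the deposited FPKM values by fold alone gave 142 and 6421 (6 and 339), moving it by -1.71. A minimum of 50 counts gave 300 higher genes and no minimum gave 894. A 2-fold ratio without the interval gave 1149 and 2768 (76 and 129), a whole interval past 4-fold gave 141 and 160 (5 and 20), and read pairs gave 322 and 319 (19 and 29). Without the genes listed at 0, 492 genes were lower, 28 of them in the lists. Totals without mitochondrially encoded and immunoglobulin genes (500 and 770) and 0.5 added to every count moved no count this far.

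On the mRNA and lncRNA total and on FPKM values, log2 ratios of genes called higher turned negative, in that order, for Ccr7 -0.37 and -0.43, Cd79b -0.46 and -0.53, Gpr183 -0.018 and -0.079, H1f2 -0.32 and -0.38, H3c4 -0.34 and -0.41, H3c7 -0.061 and -0.12, Rag2 -0.34 and -0.82, Trp53bp1 -0.51 and -1.02, Tyms -0.18 and -0.22, mt-Nd5 -0.76 and -0.82 and mt-Nd6 -0.057 and -0.12. On FPKM values alone they did so for Ccne2 -0.82, H4c14 -0.043, Hist1h2an -0.036, Tmem72 -0.014. The mRNA and lncRNA total was 3663439 in pro-B and 3709988 in pre-B, while the mRNA total was 3.61-fold smaller in pre-B. For FPKM values the cause was not tested. Under TMM, median of ratios, both reduced totals and the added 0.5, no called gene among those named changed sign. No paired analysis was possible because each stage had 1 library. In pre-B, 3 counts are 12.5 CPM, so levels below that could not be told from 0.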

Other observations

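The log2 CPM ratio fell with the counts behind 1 FPKM in pro-B, which stands for transcript length. In sixths of 7326 genes above 0 in both libraries, from the shortest to the longest, the medians were 0.12, -0.17, -0.37, -0.53, -0.60 and -0.86, and Spearman's rho across these genes, which are not independent replicates, was -0.21. Short and long transcripts thus had different medians between these libraries, and the histone and ribosomal protein lists, whose genes are short, lie on the higher side. Whether length accounts for their place was not tested.

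Of the 525 genes listed at 0 in pre-B, 445 had counts in mature B cells and 204 were also at 0 in immature B cells. For 222 of them the lncRNA table listed transcripts under the same symbol, and 0 of these had counts in pre-B. Back-spliced reads of 9 of the 525 genes were counted in pre-B.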
